A study of Mus musculus with 19 samples.

Results

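The extracellular matrix of the kidney was followed through 41 listed genes for collagens, laminins, nidogens, proteoglycans, adhesive glycoproteins, elastic fibre proteins and matrix enzymes. Each gene was taken at its brightest probe set (by its mean over all 19 arrays) among those that the annotation assigns to 1 gene only, which left 37 of the 41 genes, out of 17097 genes measured in the same way. Lama4, Lama5, Nid2 and Fbn1 had no such probe set in the annotation used and were not analysed here. Each male mouse, none with renal ischemia-reperfusion, gave RNA from a part of both kidneys for 1 Affymetrix array (HT MG-430 PM). The tested diet was 3 days without food but with free water, set against ad libitum feeding within each age. Aged mice were FVB-C57BL/6J F1 hybrids with a mean age of 73 weeks and a weight of about 47 g, 5 fasted (mouse33, 38, 39, 41 and 42) and 5 ad libitum fed (mouse34, 36, 37, 40 and 43). Young mice were of strain C57BL/6J, aged 10 to 14 weeks and weighing 22 to 25 g, 4 fasted (mouse339, 340, 343 and 344) and 5 ad libitum fed (mouse346 to 350). Values of single mice are given in these orders throughout. The cohorts differ in strain and weight as well as in age, so these cannot be told apart.

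In the interstitium between the tubules, collagens of types I, III and V assemble into fibrils, which proteoglycans and fibril-associated collagens coat and lysyl oxidases crosslink. Fibroblasts make most of this material. Basement membranes under the tubular epithelium, around capillaries and in the glomerulus are instead sheets of type IV collagen and laminin joined by nidogen, with the chains of Col4a3, Col4a4 and Col4a5 forming the specialised network of the glomerular basement membrane.

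Levels are log2 values, so a difference of 1 is a doubling. Array medians lay between 3.46 and 3.49 in aged fasted mice, and the aged ad libitum fed mice had 3.44 to 3.48. They were 4.18 to 4.21 in young fasted mice and 4.15 to 4.19 in young ad libitum fed mice, so the cohorts seem to have been normalized separately and levels are compared only within an age. Kidney identity was plain in all arrays, with a median of 10.8 to 11.3 over 4 proximal tubule markers. Liver transcripts were highest in aged fasted mouse33 (median over 8 markers 10.1, against 5.19 to 6.64 in the other aged fasted mice and 5.18 to 7.77 in the aged mice fed ad libitum). Among young mice this median was highest in fasted mouse339 (8.52). By the sum of linear levels, young ad libitum fed mouse347 and mouse348 were higher than mouse339 (5812 and 5528, against 5293). Brown adipocyte transcripts had medians of 7.36, 6.51, 6.71 and 3.82 over 5 markers in the young fasted mice, against 3.43 to 3.91 in young ad libitum fed mice. In aged mice these medians were 3.53 to 6.63 when fasted, against 3.94 to 7.58 when fed ad libitum. The brown adipocyte markers were mixed in young kidneys, where 2 of 5 rose (40%, where 10.7% of all genes rose) and 1 fell (20%, where 12.5% fell). In aged kidneys 1 rose and 1 fell (20% each, where 4.32% of all genes rose and 4.84% fell). No level on these arrays is 0. The number of arrays limits the precision, and each test measures the spread between mice.

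Fasting lowered 14 of the 37 matrix genes in young kidneys (37.8%) at an adjusted p of at most 0.05, where 12.5% of all 17097 genes fell. It raised 3 in young kidneys, Dcn, Lox and Timp2 (8.11%), where 10.7% of all genes rose. In aged kidneys it lowered 3, Col3a1, Col14a1 and Mmp2 (8.11%), where 4.84% of all genes fell. None of the 37 rose in aged kidneys by limma, where 4.32% of all genes did, although 4 had an unadjusted p under 0.05 with a positive change, and an ordinary linear model without moderation also gave 0. With a fold change of at least 1.5 required as well, 8 members fell in young kidneys (21.6%), where 3.53% of all genes did. The same threshold left 2 in aged kidneys (5.41%), where 1.28% of all genes passed. The median log2 fold change over the members was -0.25 in young and -0.13 in aged kidneys, while the median over all genes was -0.007 and -0.006. Without aged ad libitum fed mouse40 the number of members that fell in aged kidneys was 7, with Col5a1, Col5a2, Col4a2 and Col6a3 added. This mouse had the lowest sum of linear levels of podocyte markers among aged mice (299, against 498 to 607 in the other aged ad libitum fed mice). Its median over these markers was not the lowest (4.82, against 4.75 in ad libitum fed mouse36). For endothelial markers mouse40 also had the lowest sum (1225, against 1697 to 1837), and its brown adipocyte median was the highest of the aged mice (7.58). The part of tissue make-up in these calls was not tested. Without young fasted mouse339 and mouse343, which had the highest brown adipocyte medians, 11 members fell in young kidneys and the same 3 rose. Mouse340, with a median of 6.51 close behind that of mouse343, was kept in that setting. Without mouse340 as well, mouse344 was the only young fasted mouse left and was assumed to vary like the ad libitum fed mice. Then 9 members fell (Col1a1, Col3a1, Col5a2, Col6a2, Col6a3, Col14a1, Fn1, Sparc and Postn) and Lox and Timp2 rose. The part of brown or white adipocyte RNA in the calls that were lost was not tested.

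**Figure D1:**
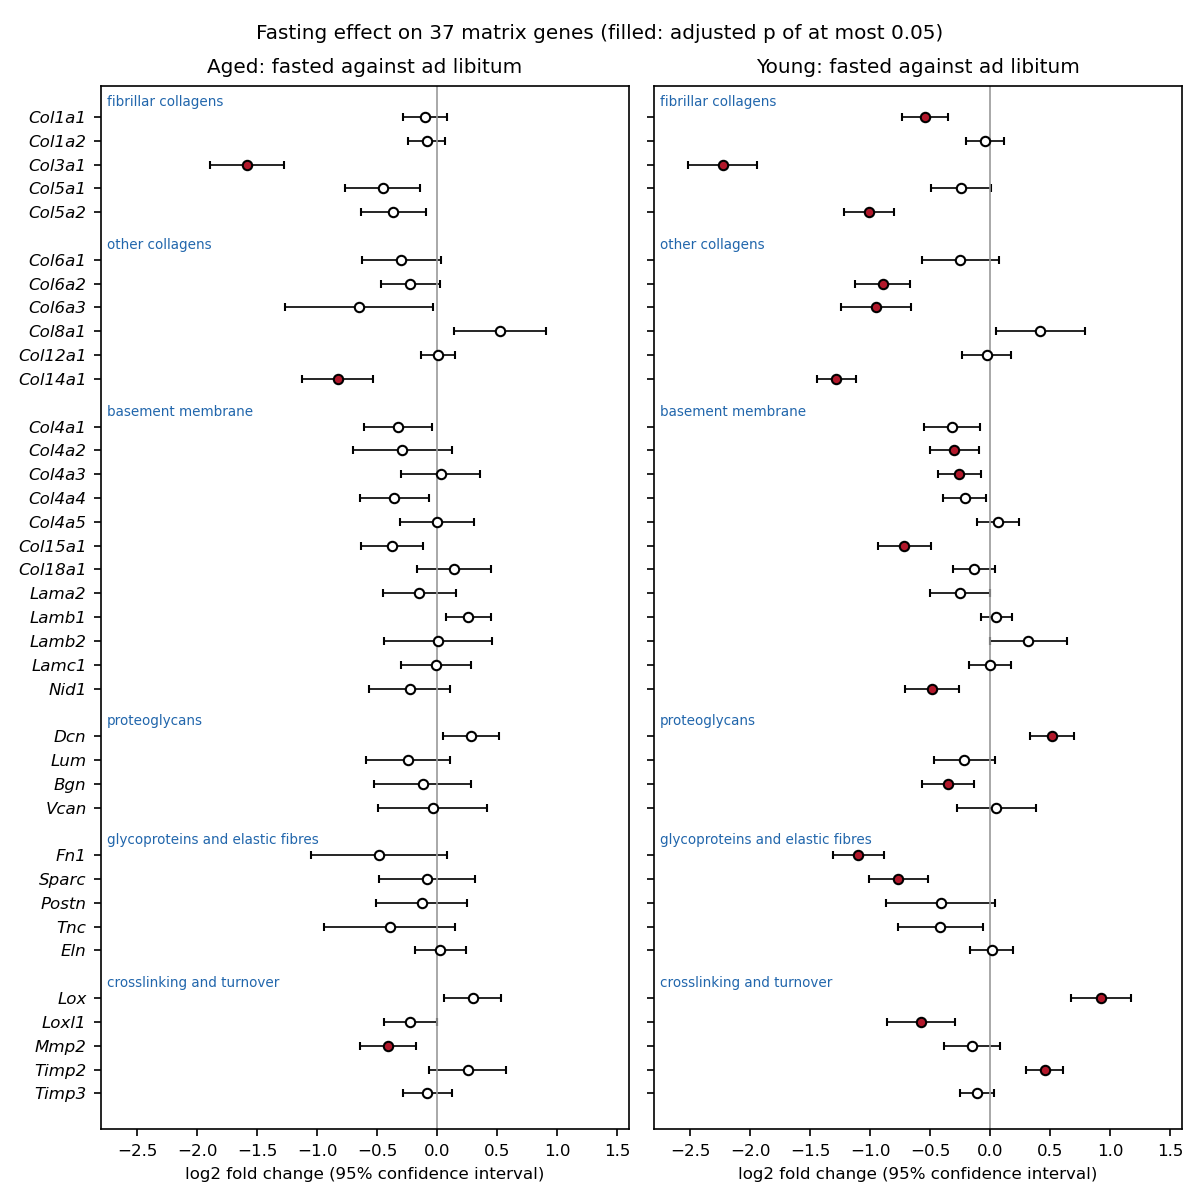
Log2 fold changes of fasted over ad libitum fed kidneys (points) with 95% confidence intervals (bars) for the 37 matrix genes, aged on the left (5 against 5 mice) and young on the right (4 against 5 mice), with the listed groups named in blue. Filled points have an adjusted p of at most 0.05, and Col3a1 lies furthest to the left in both panels, at -1.59 and -2.23.

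The fibrillar collagens were led by Col3a1, the type III chain, which had the lowest fold change of all members in both ages. The RefSeq window around its start (250 bases before to 50 after, GRCm38.p6, chr1:45311288-45311587, plus strand) is shown with the windows of Col4a1 and Col4a2, the basement membrane genes whose transcription starts lie head to head, so that the fibril gene that moved furthest can be set beside a pair with smaller changes. The Col4a1 window is chr8:11312777-11313076 on the minus strand and that of Col4a2 is chr8:11312555-11312854 on the plus strand. Each is printed 5′ to 3′ on the strand of its gene. Capitals mark the letters TATAAA in Col3a1 and, in the other windows, the 78 bases that both share, read from opposite strands.
Col3a1: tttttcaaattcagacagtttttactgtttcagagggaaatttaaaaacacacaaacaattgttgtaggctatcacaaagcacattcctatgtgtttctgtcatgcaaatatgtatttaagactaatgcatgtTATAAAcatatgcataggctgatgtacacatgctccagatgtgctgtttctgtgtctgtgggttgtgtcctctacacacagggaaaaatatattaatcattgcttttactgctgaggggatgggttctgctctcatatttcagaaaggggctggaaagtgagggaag
Col4a1: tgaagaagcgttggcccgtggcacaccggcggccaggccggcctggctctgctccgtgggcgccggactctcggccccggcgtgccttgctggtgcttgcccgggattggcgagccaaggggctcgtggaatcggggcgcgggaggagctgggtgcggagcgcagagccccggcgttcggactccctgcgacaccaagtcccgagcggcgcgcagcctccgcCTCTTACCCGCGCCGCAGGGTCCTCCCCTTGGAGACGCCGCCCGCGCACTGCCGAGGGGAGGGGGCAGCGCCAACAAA
Col4a2: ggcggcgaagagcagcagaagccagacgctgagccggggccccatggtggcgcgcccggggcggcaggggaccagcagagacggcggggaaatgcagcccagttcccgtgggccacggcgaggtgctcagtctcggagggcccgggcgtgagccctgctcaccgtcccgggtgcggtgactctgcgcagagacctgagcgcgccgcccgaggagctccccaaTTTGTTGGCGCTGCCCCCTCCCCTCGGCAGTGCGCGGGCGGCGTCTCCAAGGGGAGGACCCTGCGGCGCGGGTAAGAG
The Col3a1 window is 37.7% G and C, against 74.0% and 73.7% in the Col4a1 and Col4a2 windows and a median of 52.7% over all 32851 windows. TATAAA begins 117 bases upstream of the annotated start of Col3a1 and occurs on either strand of 13.6% of all windows. The letters CCAAT (37.4% of all windows) and GGGCGG (35.7%), searched on both strands, occur in the Col4a1 and Col4a2 windows and not in that of Col3a1. A match of letters is no evidence of a bound site. Of the 41 members, 26 had a window in the table.

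Col3a1 was at 6.14, 5.77, 5.45, 5.63 and 5.90 in aged fasted mice, against 7.23, 7.61, 7.59, 6.99 and 7.38 in aged ad libitum fed mice. Young fasted mice had 7.06, 6.65, 7.01 and 6.79, against 8.79, 9.30, 8.91, 9.39 and 9.13 in young ad libitum fed mice. Every fasted mouse lay below every ad libitum fed mouse of its age. The fall was 3.00-fold in aged kidneys (log2 fold change -1.59, standard error 0.14, adjusted p = 3.63e-05) and 4.69-fold in young kidneys (-2.23, standard error 0.13, adjusted p = 1.05e-06). A second, dimmer probe set of Col3a1 had -0.21 in aged kidneys (adjusted p = 0.197) and -1.07 in young kidneys (adjusted p = 2.33e-05). The difference between the ages, 0.64 (standard error 0.21), did not pass the test (adjusted p = 0.122).

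Col5a1 and Col5a2 encode type V chains, which set the width of growing fibrils. For Col5a2 the aged fasted mice had 4.92, 4.93, 4.68, 4.86 and 4.66, against 5.17, 5.34, 5.29, 4.69 and 5.38 in aged ad libitum fed mice. It was at 7.65, 7.49, 7.58 and 7.49 in young fasted mice, against 8.63, 8.76, 8.68, 8.29 and 8.43 in young ad libitum fed mice. The aged groups overlapped only through ad libitum fed mouse40, and the young groups did not overlap. Col5a2 fell 2.02-fold in young kidneys (-1.01, standard error 0.09, adjusted p = 2.81e-05) and had -0.36 in aged kidneys (standard error 0.12, adjusted p = 0.114), where it fell only in the analysis without mouse40 and in 2 of the other settings tried. Col5a1 was at 4.77, 4.40, 4.62, 4.20 and 4.40 in aged fasted mice, against 4.87, 5.38, 5.03, 4.57 and 4.80 in aged ad libitum fed mice. In young mice it was at 6.01, 6.16, 6.17 and 6.33 when fasted, against 6.14, 6.76, 6.33, 6.49 and 6.33 when fed ad libitum. Its groups overlapped in both ages (-0.45, adjusted p = 0.091 in aged and -0.24, adjusted p = 0.174 in young kidneys), and it fell in aged kidneys without mouse40 and in 3 of the other settings.

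Col1a1 and Col1a2, the chains of type I collagen, were read by dim probe sets, with mean levels above only 37.7% and 17.5% of all probe sets. Col1a1 was at 3.15, 3.32, 3.05, 3.10 and 3.11 in aged fasted mice, against 3.25, 3.50, 3.22, 3.11 and 3.16 in aged ad libitum fed mice. Young fasted mice had 3.13, 2.95, 3.18 and 3.00, against 3.75, 3.63, 3.37, 3.54 and 3.75 in young ad libitum fed mice. Only the young groups were separate, and Col1a1 fell there by 0.54 on the log2 scale (standard error 0.09, adjusted p = 0.00117), against -0.10 in aged kidneys (adjusted p = 0.599). Col1a2 was at 2.62, 2.60, 2.50, 2.48 and 2.49 in aged fasted mice, against 2.65, 2.44, 2.67, 2.60 and 2.75 in aged ad libitum fed mice. For young mice the Col1a2 levels were 3.15, 3.21, 3.07 and 3.15 when fasted, against 3.05, 3.15, 3.10, 3.27 and 3.36 when fed ad libitum. At this level its changes of -0.08 (95% interval -0.24 to 0.07) and -0.04 (-0.20 to 0.12) were not detectable.

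**Figure D2:**
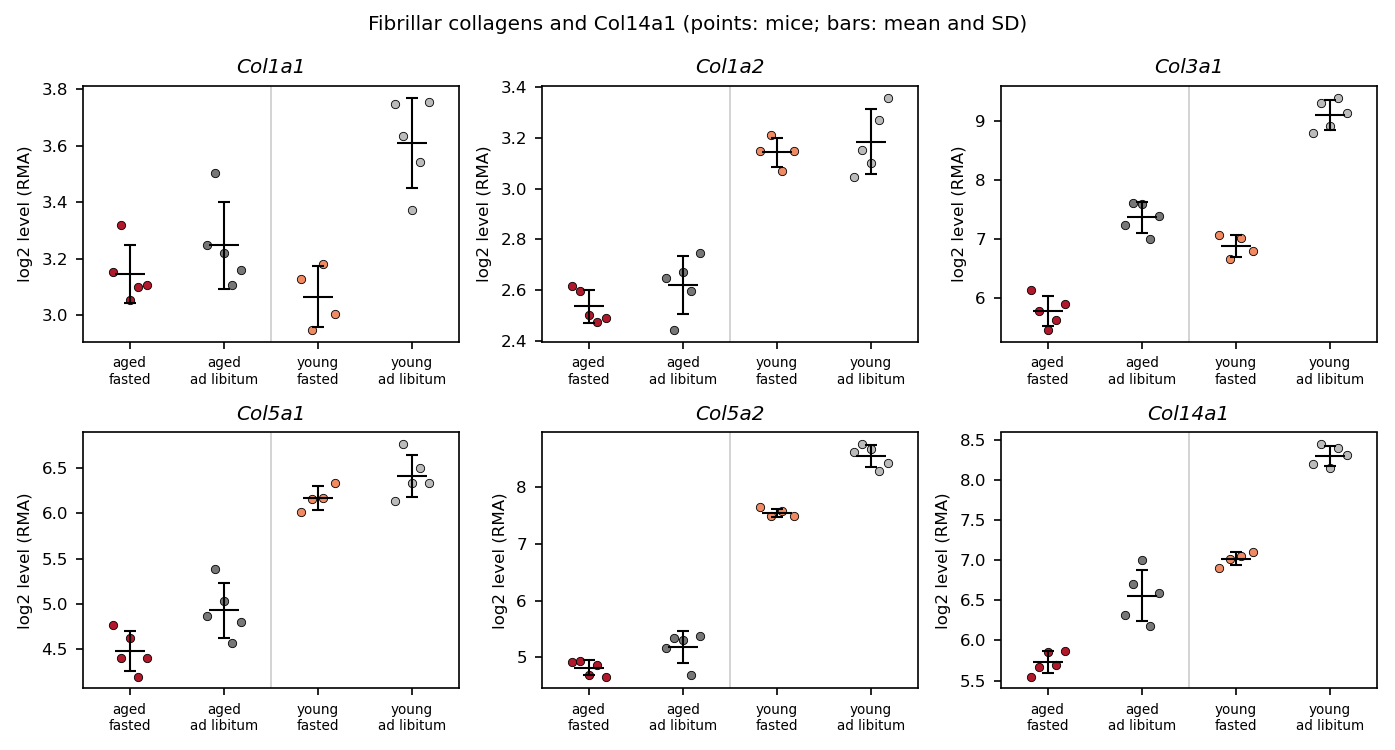
Log2 levels of the 5 fibrillar collagens and of the fibril-associated collagen gene Col14a1 in each of 19 mice, fasted left of ad libitum fed within each age, with bars for the mean and SD. For Col3a1 and Col14a1 the fasted mice lie below all ad libitum fed mice of their age, and each panel has its own log2 axis.

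Fibril-associated Col14a1, whose protein sits on the surface of type I fibrils, fell in both ages. Its levels in aged fasted mice were 5.55, 5.67, 5.86, 5.69 and 5.87, against 6.32, 6.70, 7.00, 6.18 and 6.59 in aged ad libitum fed mice. They were 6.91, 7.01, 7.05 and 7.10 in young fasted mice, against 8.20, 8.45, 8.14, 8.40 and 8.31 in young ad libitum fed mice. The groups did not overlap in either age, and the fall was 1.78-fold in aged kidneys (-0.83, standard error 0.14, adjusted p = 0.00296) and 2.43-fold in young kidneys (-1.28, standard error 0.08, adjusted p = 1.1e-06). The 2 dimmer probe sets of Col14a1 had -0.29 (adjusted p = 0.3) and 0.10 (adjusted p = 0.598) in aged kidneys, and -0.95 (adjusted p = 0.00012) and -0.17 (adjusted p = 0.109) in young kidneys. With the mean of its 3 probe sets the fall was smaller, -0.34 in aged (adjusted p = 0.0455) and -0.80 in young kidneys (adjusted p = 3.77e-06). Col12a1, the other fibril-associated collagen gene, was among the dimmest members and had 0.01 in aged and -0.03 in young kidneys.

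Type VI collagen forms beaded filaments between fibrils and basement membranes, and its genes Col6a2 and Col6a3 fell in young kidneys. Col6a2 was at 4.92, 4.95, 4.59, 4.81 and 5.16 in aged fasted mice, against 5.09, 5.20, 5.22, 4.79 and 5.26 in aged ad libitum fed mice. In young fasted mice Col6a2 had 5.32, 4.93, 5.25 and 5.41, against 6.06, 6.22, 6.24, 6.22 and 5.88 in young ad libitum fed mice. Its young groups were separate (-0.90, standard error 0.11, adjusted p = 0.000145) and its aged groups overlapped (-0.22, standard error 0.11, adjusted p = 0.323). Col6a3 had 5.81, 5.76, 5.36, 5.47 and 6.62 in aged fasted mice, against 6.61, 6.63, 6.79, 5.39 and 6.85 in aged ad libitum fed mice. Its young fasted mice were at 7.10, 6.84, 7.36 and 7.47, against 7.87, 8.31, 8.06, 8.35 and 8.12 in young ad libitum fed mice. Here too the young groups were separate (-0.95, standard error 0.13, adjusted p = 0.000453), while in aged kidneys fasted mouse42 lay high and ad libitum fed mouse40 low (-0.65, standard error 0.28, adjusted p = 0.238). Without mouse40, or with array weights, Col6a3 also fell in aged kidneys. Col6a1, the third chain, had -0.30 in aged (adjusted p = 0.326) and -0.25 in young kidneys (adjusted p = 0.293). Col8a1, a network-forming collagen gene of vessel walls, lay on the positive side, with 0.53 in aged (adjusted p = 0.113) and 0.42 in young kidneys (adjusted p = 0.111).

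Of the 12 measured basement membrane genes, 4 (33.3%) fell in young kidneys, where 12.5% of all genes fell. They were Col4a2, Col4a3, Col15a1 and Nid1, and 8 did not pass the test. The young count was 2 to 5 on leaving out 1 array, with 2 without ad libitum fed mouse347 or mouse348 or fasted mouse340. It was 2 without moderation or with all arrays in one fit, 6 with the mean of the probe sets of a gene, 1 (Col15a1) with a fold minimum of 1.5 and 0 without young fasted mouse339, 340 and 343. In aged kidneys 0 of 12 fell and 0 rose by limma, where 4.84% of all genes fell and 4.32% rose. At an unadjusted p under 0.05, 3 of the 12 were lower and 1 was higher in aged kidneys, and the ordinary linear model also gave 0 in each direction. Other settings gave 1 fall there, that of Col15a1 with all arrays in one fit, array weights, quantile normalization or without ad libitum fed mouse36, and that of Col4a2 without ad libitum fed mouse40. Col15a1, which encodes a collagen that anchors basement membranes to the interstitium, was at 3.73, 3.75, 3.57, 4.02 and 3.84 in aged fasted mice, against 4.17, 3.80, 4.41, 4.01 and 4.38 in aged ad libitum fed mice. Young fasted mice were at 4.30, 4.40, 4.30 and 4.43, against 4.84, 5.36, 5.18, 5.12 and 4.86 in young ad libitum fed mice. The young groups did not overlap and Col15a1 fell 1.64-fold (-0.72, standard error 0.10, adjusted p = 0.000524), with -0.38 in aged kidneys (standard error 0.12, adjusted p = 0.0949). Nid1, for the linker nidogen, had 5.95, 6.02, 6.05, 6.11 and 6.66 in aged fasted mice, against 6.26, 6.59, 6.61, 5.95 and 6.52 in aged ad libitum fed mice. Its young levels were 8.15, 7.93, 8.32 and 8.49 in fasted mice, against 8.71, 8.74, 8.54, 8.76 and 8.79 in ad libitum fed mice. All young fasted mice were lower (-0.49, standard error 0.10, adjusted p = 0.00595), and the aged groups overlapped (-0.23, standard error 0.15, adjusted p = 0.485).

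The main type IV chains are encoded by Col4a1 and Col4a2, the pair with the shared promoter bases. Col4a1 was at 8.32, 8.26, 8.27, 8.22 and 8.47 in aged fasted mice, against 8.23, 8.93, 8.87, 8.36 and 8.79 in aged ad libitum fed mice. Young fasted mice had Col4a1 at 9.35, 9.53, 9.56 and 9.81, against 9.70, 9.94, 9.88, 10.13 and 9.75 in young ad libitum fed mice. These groups overlapped in both ages, with -0.33 (adjusted p = 0.184) and -0.32 (adjusted p = 0.0577). A second, dimmer probe set of Col4a1 fell in young kidneys (-0.43, adjusted p = 0.0044) and had -0.27 in aged kidneys (adjusted p = 0.529). The brightest one passed the test in young kidneys in 5 other settings and without ad libitum fed mouse346 or fasted mouse344, and so did the mean of both (-0.37, adjusted p = 0.00492). Col4a2 was at 7.55, 7.95, 7.74, 7.65 and 7.87 in aged fasted mice, against 7.82, 8.27, 8.47, 7.30 and 8.36 in aged ad libitum fed mice. Its young fasted mice had 7.87, 7.84, 7.76 and 8.23, against 8.21, 8.36, 8.15, 8.14 and 8.26 in young ad libitum fed mice. The changes of Col4a2 were close to those of its neighbour, -0.29 (standard error 0.19, adjusted p = 0.47) in aged and -0.30 (standard error 0.09, adjusted p = 0.0429) in young kidneys. The young call of Col4a2 was lost without any 1 array except young fasted mouse344 (-0.24 without mouse343, adjusted p = 0.121). Without young fasted mouse339, 340 and 343 the change was 0.00398. Leaving out aged ad libitum fed mouse40, the lowest of its group, made Col4a2 fall in aged kidneys.

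Of the chains of the glomerular basement membrane, Col4a3 was at 8.27, 8.67, 8.47, 8.58 and 9.03 in aged fasted mice, against 8.34, 8.93, 8.62, 8.23 and 8.74 in aged ad libitum fed mice. In young mice Col4a3 had 9.39, 9.19, 9.39 and 9.11 when fasted, against 9.59, 9.64, 9.56, 9.42 and 9.41 when fed ad libitum. The young gap was narrow (-0.26, standard error 0.08, adjusted p = 0.0455), and the call was lost without young ad libitum fed mouse346, 347 or 348 or young fasted mouse340 or 344 (-0.20 without mouse344, adjusted p = 0.131), while aged kidneys had 0.03 (standard error 0.15, adjusted p = 0.952). Col4a4 was at 8.68, 9.25, 9.10, 9.01 and 9.40 in aged fasted mice, against 9.26, 9.58, 9.46, 9.23 and 9.69 in aged ad libitum fed mice. The young fasted mice had Col4a4 at 9.08, 8.89, 9.00 and 9.01, against 9.24, 9.42, 9.15, 9.23 and 9.01 in young ad libitum fed mice. At this probe set Col4a4 did not pass the test in either age, with -0.36 (adjusted p = 0.152) and -0.21 (adjusted p = 0.0963). It fell in young kidneys without ad libitum fed mouse350 and with the mean of its probe sets. A second, dimmer probe set of Col4a4 fell in young kidneys (-0.53, adjusted p = 0.00663) and had -0.73 in aged kidneys (adjusted p = 0.0709). Col4a5 had 0.00 and 0.07.

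The 4 laminin genes measured among the 37 members did not pass the test in either age, although Lamb1 rose in aged kidneys when all arrays entered one fit and Lama2 fell in young kidneys without fasted mouse344. Laminin genes that are not members, Lama3 and Lamb3 among them, are described with the other basement membrane genes. Lamb1, a beta chain, was at 8.89, 9.21, 9.07, 9.07 and 9.06 in aged fasted mice, against 8.67, 8.99, 8.80, 8.63 and 8.92 in aged ad libitum fed mice. Its young levels were 9.57, 9.58, 9.58 and 9.70 in fasted mice, against 9.47, 9.58, 9.55, 9.64 and 9.55 in ad libitum fed mice. The change was 0.26 in aged kidneys (standard error 0.09, adjusted p = 0.109) and 0.05 in young kidneys (95% interval -0.08 to 0.18). Lamb2, the beta chain of the glomerular basement membrane, had 0.01 and 0.32, Lamc1, the gamma chain common to most laminins, -0.01 and -0.00, and Lama2, an alpha chain, -0.15 and -0.25 in aged and young kidneys. The adjusted p of these 3 genes was 0.163 or more. Col18a1, whose protein releases endostatin, had 0.14 in aged and -0.13 in young kidneys, with adjusted p of 0.677 and 0.299.

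**Figure D3:**
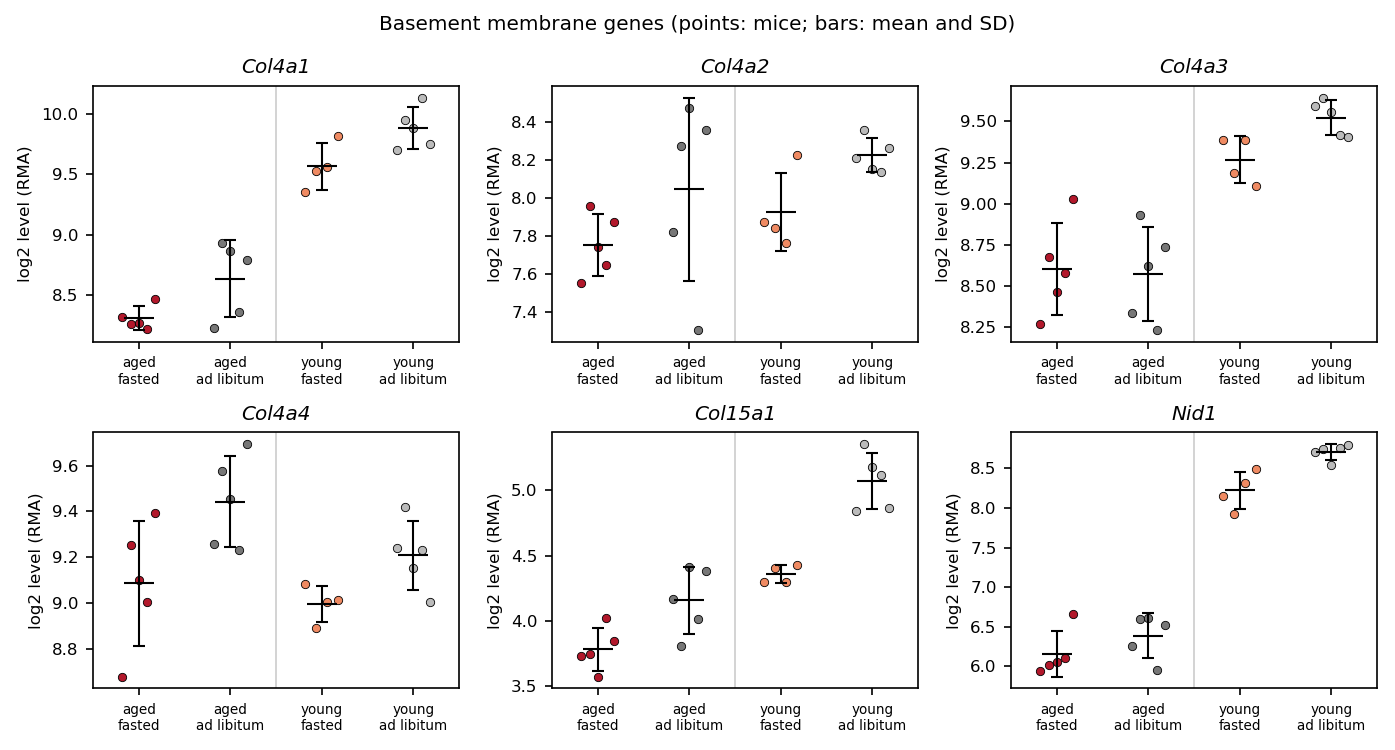
Log2 levels of 6 basement membrane genes in each of 19 mice, fasted left of ad libitum fed within each age, with bars for the mean and SD. The young fasted mice lie below all young ad libitum fed mice for Col15a1, Nid1 and, narrowly, Col4a3, and the aged groups overlap in all 6 panels, each of which has its own log2 axis.

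Set against each other, the median change of the fibrillar collagens lay below that of the basement membrane genes in both ages. All 5 fibrillar collagens had negative fold changes in both ages, with medians of -0.36 in aged and -0.54 in young kidneys. Of these, 1 passed the test in aged (20%, where 4.84% of all genes fell) and 3 in young kidneys (60%, where 12.5% fell). The changes of Col1a2 in both ages and of Col1a1 in aged kidneys were small and read by dim probe sets. Over the basement membrane genes, 7 of 12 were negative in aged and 9 of 12 in young kidneys, with medians of -0.08 and -0.23. Past the test, 0 of the 12 fell in aged and 4 (33.3%) in young kidneys. The difference of the medians was -0.29 in aged and -0.31 in young kidneys. It is a description, since genes of one array are not replicates. Per mouse, the mean difference from the ad libitum fed mean over the 5 fibrillar collagens was -0.52 ± 0.11 in aged fasted mice (SD, n = 5), against ± 0.17 around 0 in aged ad libitum fed mice (n = 5). In young fasted mice it was -0.81 ± 0.05 (n = 4), against ± 0.10 around 0 in young ad libitum fed mice (n = 5). Over the 12 basement membrane genes the same mean was -0.11 ± 0.17 in aged and -0.19 ± 0.10 in young fasted mice, against spreads of ± 0.25 and ± 0.06 in the ad libitum fed mice of these ages. The fibrillar mean minus the basement membrane mean was -0.56 to -0.78 in young fasted mice, against -0.06 to 0.06 in young ad libitum fed mice. In aged fasted mice it was -0.02 to -0.69, with mouse33 nearest to 0, against -0.15 to 0.12 in aged ad libitum fed mice. Col3a1 carries much of the fibrillar mean, with -1.59 in aged and -2.23 in young kidneys. Col5a1 had -0.45 and -0.24, Col5a2 -0.36 and -1.01, Col1a1 -0.10 and -0.54 and Col1a2 -0.08 and -0.04. The difference of the medians was not computed without Col3a1. Leaving out the dim Col1a1 and Col1a2, the medians of the 3 other fibrillar collagens were -0.45 in aged and -1.01 in young kidneys, which moved the difference of the medians to -0.37 and -0.78. With the mean of the probe sets of a gene in place of the brightest, it shrank to -0.10 in aged and was -0.28 in young kidneys.

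**Figure D4:**
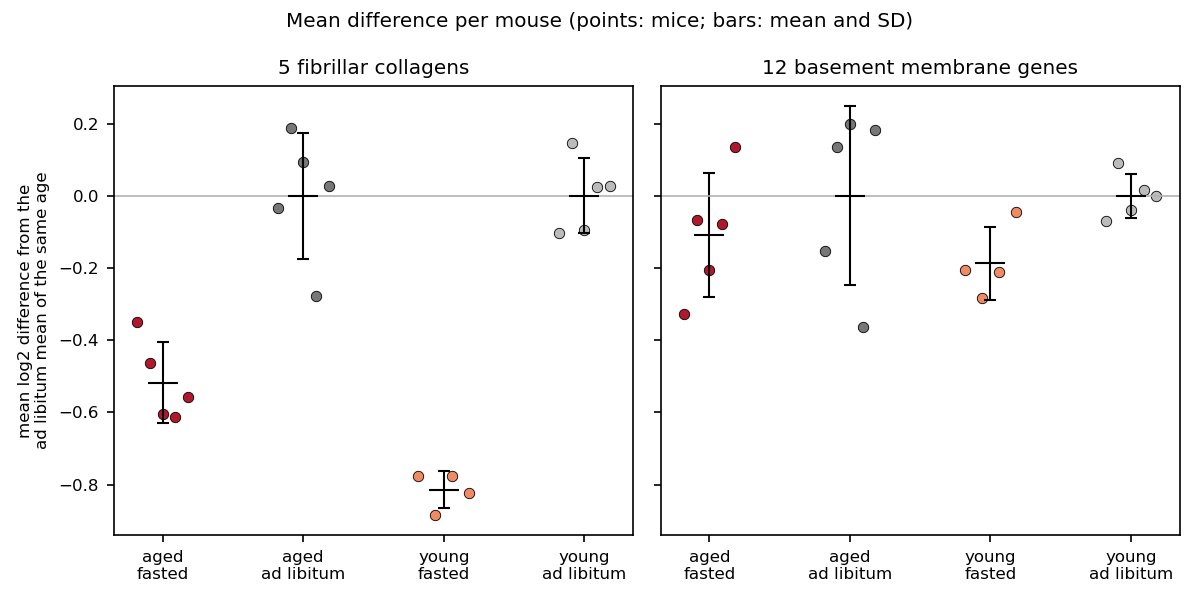
Mean log2 difference from the ad libitum fed mean of the same age for each mouse (points), over 5 fibrillar collagens (left) and 12 basement membrane genes (right), with bars for the mean and SD of each group. Fasted mice lie at -0.35 to -0.61 (aged) and -0.77 to -0.88 (young) on the left, and on the right between -0.33 and 0.14 (aged) and between -0.28 and -0.04 (young), where they overlap the ad libitum fed mice.

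Of 5 measured glycoprotein and elastic fibre genes, Fn1 and Sparc fell in young kidneys (40%, where 12.5% of all genes fell) and 3 did not pass the test. Fibronectin (Fn1), which cells assemble into fibrils through integrins, was at 6.56, 5.56, 4.87, 5.15 and 5.53 in aged fasted mice, against 5.95, 6.05, 6.38, 5.52 and 6.20 in aged ad libitum fed mice. Young fasted mice had Fn1 at 6.27, 6.27, 6.45 and 6.65, against 7.41, 7.71, 7.37, 7.57 and 7.47 in young ad libitum fed mice. It fell 2.14-fold in young kidneys (-1.10, standard error 0.10, adjusted p = 1.83e-05). In aged kidneys the change was -0.49 (standard error 0.26, adjusted p = 0.356), and the highest of the 10 values was that of fasted mouse33, where liver RNA was highest. Without mouse33, Fn1 also fell in aged kidneys (-0.74, adjusted p = 0.0273). Fibronectin is also a plasma protein made by liver, and the part of liver RNA in this value was not tested. Sparc, for a collagen-binding protein, was at 8.41, 8.38, 7.97, 8.43 and 8.45 in aged fasted mice, against 8.49, 8.72, 8.62, 7.62 and 8.62 in aged ad libitum fed mice. Its young fasted mice had 8.54, 7.94, 8.12 and 8.23, against 9.08, 8.97, 8.76, 8.98 and 9.10 in young ad libitum fed mice. Sparc fell 1.70-fold in young kidneys (-0.77, standard error 0.11, adjusted p = 0.000625) and had -0.08 in aged kidneys (standard error 0.18, adjusted p = 0.872), where ad libitum fed mouse40 was the lowest of all 10 mice. Postn and Tnc, for the matricellular proteins periostin and tenascin, had -0.13 and -0.39 in aged and -0.41 and -0.42 in young kidneys, with adjusted p of 0.0996 or more. Tnc fell in young kidneys with array weights or without ad libitum fed mouse346. Elastin (Eln) had 0.03 and 0.01.

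The small proteoglycans did not move as one group. Decorin (Dcn), which coats collagen fibrils, rose in young kidneys, with 10.45 to 10.72 in fasted mice, against 9.90 to 10.22 in ad libitum fed mice (0.52, standard error 0.08, adjusted p = 0.00119). Its aged levels were 8.77 to 9.38 in fasted mice, against 8.72 to 9.02 in ad libitum fed mice (0.28, adjusted p = 0.164), and it rose there without fasted mouse39. The related biglycan (Bgn) fell in young kidneys, with 9.24 to 9.78 in fasted mice, against 9.71 to 9.86 in ad libitum fed mice (-0.35, standard error 0.10, adjusted p = 0.0282), and had -0.12 in aged kidneys. The call of Bgn was lost without any 1 young array except ad libitum fed mouse346 and fasted mouse344 (-0.29 without mouse340, adjusted p = 0.0841), and the change was 0.00556 without fasted mouse339, 340 and 343. Lumican (Lum) had -0.25 and -0.22 and the dim versican (Vcan) -0.04 and 0.05 in aged and young kidneys, with adjusted p of 0.247 or more.

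Lox, for the lysyl oxidase that crosslinks collagen and elastin, went the other way from the collagens. It was at 3.47, 3.57, 3.35, 3.86 and 3.33 in aged fasted mice, against 3.17, 2.98, 3.30, 3.22 and 3.40 in aged ad libitum fed mice. Young fasted mice had 6.88, 6.30, 6.60 and 6.78, against 5.80, 5.86, 5.68, 5.51 and 5.74 in young ad libitum fed mice. Every young fasted mouse was higher than every young ad libitum fed mouse, a rise of 1.90-fold (0.93, standard error 0.11, adjusted p = 0.00019), while the aged change was 0.30 (standard error 0.11, adjusted p = 0.149). The related oxidase gene Loxl1 fell in young kidneys, with 6.47 to 7.05 in fasted mice, against 7.05 to 7.52 in ad libitum fed mice (-0.57, standard error 0.13, adjusted p = 0.00918), and had -0.22 in aged kidneys (adjusted p = 0.259). Without young fasted mouse339 and mouse343 the fall of Loxl1 did not pass the test (-0.44, adjusted p = 0.107). Timp2, for an inhibitor of matrix metalloproteinases, rose in young kidneys, with 8.80 to 9.08 in fasted mice, against 8.37 to 8.55 in ad libitum fed mice (0.45, standard error 0.07, adjusted p = 0.000951). It had 0.25 in aged kidneys (adjusted p = 0.406). None of its dimmer probe sets passed the test in young kidneys (0.37, 0.25, 0.10 and 0.10, adjusted p = 0.0970, 0.0703, 0.397 and 0.496). The mean of all its probe sets did (0.26, adjusted p = 0.0306). Timp3, for the matrix-bound inhibitor, had -0.08 in aged and -0.11 in young kidneys (adjusted p = 0.288) at its brightest probe set. Of its 3 dimmer probe sets 2 fell in young kidneys (-0.38, adjusted p = 0.00618 and -0.53, adjusted p = 0.0105), and so did the mean of all 4 (-0.30, adjusted p = 0.00208). Mmp2, for a gelatinase that Timp2 helps to activate, fell in aged kidneys, with 3.26 to 3.78 in fasted mice, against 3.88 to 4.29 in ad libitum fed mice (-0.41, standard error 0.11, adjusted p = 0.0389), and had -0.15 in young kidneys. This call was lost without any 1 of 8 of the 10 aged arrays, all except ad libitum fed mouse40 and fasted mouse41 (-0.32 without fasted mouse42, adjusted p = 0.0636). The aged levels of Mmp2 and Lox lay close to the medians of the aged arrays, 3.44 to 3.49, which limits what their aged results can show. This limit also holds for the aged results of Tnc (2.64 to 4.23), Postn (3.17 to 4.38), Eln (3.53 to 4.09) and Col15a1 (3.57 to 4.41).

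**Figure D5:**
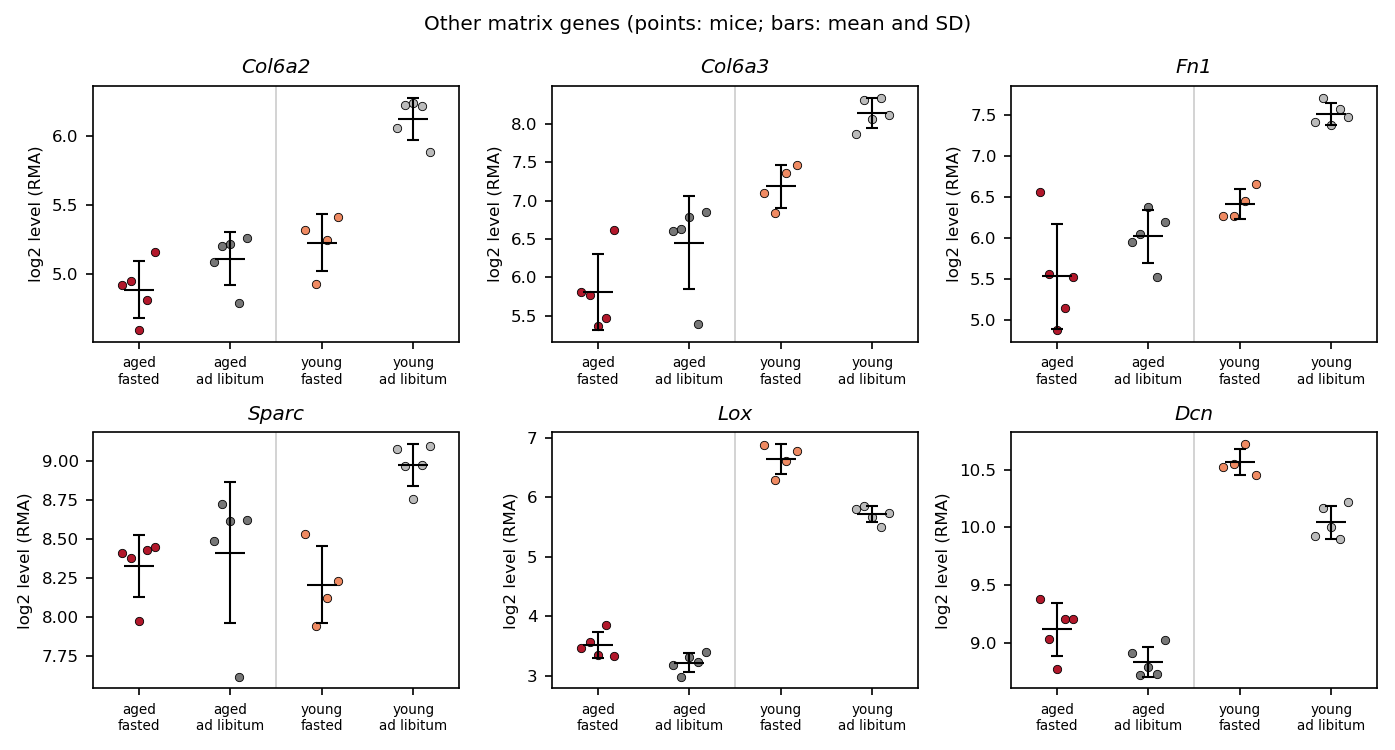
Log2 levels of type VI collagen genes, fibronectin, Sparc, Lox and decorin in each of 19 mice, fasted left of ad libitum fed within each age, with bars for the mean and SD. In young mice the fasted points lie below the ad libitum fed points for Col6a2, Col6a3, Fn1 and Sparc and above them for Lox and Dcn, and each panel has its own log2 axis.

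The fasting effect itself differed between the ages for 2 of the 37 members (5.41%) in one fit of all 19 arrays, where it did for 2.44% of all genes. They were Col5a2 (aged minus young 0.65, standard error 0.17, adjusted p = 0.0466) and Col6a2 (0.67, standard error 0.16, adjusted p = 0.0366), both of which fell in young kidneys and did not pass the test in aged kidneys. For Lox the difference was -0.63 (standard error 0.17, adjusted p = 0.054), for Sparc 0.68 (standard error 0.24, adjusted p = 0.163) and for Fn1 0.61 (standard error 0.31, adjusted p = 0.412), none past the test. The cohorts seem to have been normalized separately and differ in level. Col5a2 lay at 4.66 to 5.38 in aged and 7.49 to 8.76 in young mice, and Col6a2 at 4.59 to 5.26 and 4.93 to 6.24. The part of level, normalization or strain in these differences was not tested. The calls of Col5a2 and Col6a2 lie close to the threshold and depended on single arrays. The number of members with a difference was 0 without young ad libitum fed mouse346 or mouse347, aged ad libitum fed mouse34 or aged fasted mouse38. Both calls were also lost without young ad libitum fed mouse348, where only Col1a1 passed, and without young fasted mouse340 or aged fasted mouse41, where only Lox did. Only Col5a2 was left without young ad libitum fed mouse349 or aged fasted mouse42, and only Col6a2 without young ad libitum fed mouse350, young fasted mouse339, 343 or 344 or aged fasted mouse33. Without aged ad libitum fed mouse37 the 2 genes were Col6a2 and Col14a1, and without aged ad libitum fed mouse36 there were 4 (Col5a2, Col6a2, Col1a1 and Lox).

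Beside the brightest ones there were 37 further single-gene probe sets of 23 members, of which 32 had the sign of the brightest in aged and 33 in young kidneys. The remaining 14 members had 1 probe set each.

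Among genes that act on collagen in the cell, 15 of 18 listed were measured. In young kidneys 4 of them fell (Pcolce, Serpinh1, Plod2 and Crtap; 26.7%, where 12.5% of all genes fell), and in aged kidneys 2 (Pcolce and Crtap; 13.3%, where 4.84% fell). Pcolce, whose product speeds the removal of the procollagen propeptide, fell in both ages (-0.76, standard error 0.11, adjusted p = 0.00137 in aged and -1.23, standard error 0.09, adjusted p = 4.29e-06 in young kidneys). The collagen chaperone gene Serpinh1 fell in young kidneys (-0.94, adjusted p = 4.6e-05) and had -0.16 in aged kidneys (adjusted p = 0.691), and Plod2, for a lysyl hydroxylase, fell likewise in young kidneys (-0.74, adjusted p = 5.04e-05) and had -0.08 in aged kidneys. Of 14 other basement membrane genes measured, 5 fell in young kidneys (Lama3, Npnt, Smoc2, Fras1 and Frem1, 35.7%, where 12.5% of all genes fell). There 2 rose (Lamb3 and Pxdn, 14.3%, where 10.7% of all genes rose), while Lama3 and Fras1 fell in aged kidneys (14.3%, where 4.84% fell). The largest of these falls was that of Lama3, a laminin alpha chain of epithelia, with -1.37 in aged (standard error 0.11, adjusted p = 1.26e-05) and -1.17 in young kidneys (standard error 0.09, adjusted p = 5.43e-06). Nephronectin (Npnt) had -0.39 (adjusted p = 0.316) and fell by 1.00 in young kidneys (adjusted p = 4.72e-05), and the calcium-binding Smoc2 had -0.51 (adjusted p = 0.224) and fell by 0.77 in young kidneys (adjusted p = 0.000667).

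Of 16 matrix receptor genes, 3 fell (18.8%, where 12.5% of all genes fell) and 1 rose (Itgav; 6.25%, where 10.7% of all genes rose) in young kidneys, and 2 fell in aged kidneys (12.5%, where 4.84% fell). Itga8, the alpha chain of the nephronectin receptor, fell by 0.58 in aged and by 0.54 in young kidneys (adjusted p = 0.0341 and 0.000169). Itgb6, the beta chain of an epithelial integrin that activates TGF-beta, fell by 0.96 and 0.62 (adjusted p = 0.0215 and 0.000179), and Itga6, for a laminin receptor chain, fell by 0.50 in young kidneys (adjusted p = 0.00167), against 0.01 in aged kidneys. Of 15 genes of the TGF-beta pathway, which induces many matrix genes, 2 fell (Smad2 and Ltbp1) and Smad4 rose in young kidneys, while Smad2 fell and 2 rose (Smad7 and Tgfbr1) in aged kidneys. The young shares, 13.3% and 6.67%, lie near or below those of all genes, and the aged shares were 6.67% and 13.3%, where 4.84% of all genes fell and 4.32% rose. Smad2, a receptor-activated transducer, fell in both ages (-0.36 in aged and -0.40 in young kidneys, adjusted p = 0.013 and 0.00442). Smad7, an inhibitor of the pathway, rose in aged kidneys (0.74, adjusted p = 0.00969) and had 0.24 in young kidneys (adjusted p = 0.0654), and the common partner Smad4 rose in young kidneys (0.29, adjusted p = 0.00411) and had -0.02 in aged kidneys. Of 12 genes of matrix degradation, 4 fell in young kidneys (Adamts5, Plau, Adamts1 and Ctsk, 33.3%, where 12.5% of all genes fell). Mmp11 rose there (8.33%, where 10.7% of all genes rose), and Adamts5 fell in aged kidneys (8.33%, where 4.84% of all genes fell). Adamts5, for an aggrecanase that cleaves proteoglycans, fell in both (-0.63, adjusted p = 0.00314 and -0.98, adjusted p = 3.45e-06), while Mmp11 rose by 0.66 (adjusted p = 0.00135) and Plau, the urokinase gene, fell by 0.57 (adjusted p = 0.00644) in young kidneys.

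Markers of the cells that make matrix did not all move one way. Of 9 fibroblast and pericyte markers, 4 fell (44.4%) and 1 rose (11.1%) in young kidneys, where 12.5% of all genes fell and 10.7% rose. Those that fell were Cdh11 (-1.29, adjusted p = 8.73e-06), Tcf21 (-0.69), Dpt (-0.61) and Thy1 (-0.36), while Pdgfra rose (0.75, adjusted p = 0.0153). The sum of the linear levels of the 9 was 458 to 508 in young fasted mice, against 693 to 746 in young ad libitum fed mice. Bright genes weigh most in such a sum. The medians over the 9 overlapped, with 5.49 to 5.79 in young fasted and 5.75 to 6.11 in young ad libitum fed mice. The median change over the 9 was -0.10 in young kidneys. In aged kidneys 1 of 9 fell (11.1%, where 4.84% of all genes fell), Cdh11 (-0.56, adjusted p = 0.0241). The aged sums were 261 to 356 in fasted mice, against 242 to 314 in ad libitum fed mice. Of 7 macrophage markers, 5 fell in young kidneys (71.4%, where 12.5% of all genes fell), namely C1qa, C1qb, C1qc, Adgre1 and Csf1r. Their list had sums of 305 to 363 in young fasted mice, against 469 to 622 in young ad libitum fed mice. Csf1r (14.3% of the list, where 4.84% of all genes fell) fell in aged kidneys. The aged sums of the list were 273 to 493 in fasted mice, against 322 to 536 in ad libitum fed mice. Podocyte markers, of cells that make glomerular basement membrane chains, had sums of 712 to 829 in young fasted mice, against 595 to 769 in young ad libitum fed mice. All 5 had positive changes in young kidneys and 1 (Wt1) rose, which is 20%, where 10.7% of all genes rose. Of 5 smooth muscle and myofibroblast markers Acta2 (20%, where 12.5% of all genes fell) fell in young kidneys (-0.60, adjusted p = 0.000775). There 3 of the 5 had positive changes. Of 9 endothelial markers Kdr and Ehd3 (22.2%) fell in young kidneys (-0.27 and -0.28), where 12.5% of all genes fell. The median change over these 9 was 0.14 in aged kidneys. The part of these cell types in the fall of the collagens was not tested. In RNA of whole kidney tissue, fewer cells of a type and less RNA per cell cannot be told apart.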

How the data were processed

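The authors extracted RNA from frozen kidneys, left out samples of low RNA integrity, hybridised 1 array per mouse and deposited RMA log2 values from an online pipeline, whose version is not given in the sources used here, in one table of 45141 probe sets and 19 arrays. By the platform annotation given, 28898 probe sets name 1 gene, 551 name several and 15692 have no entry.

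Fasted and ad libitum fed mice were compared within each age with the moderated linear models of limma 3.58.1 (R 4.3.3), and the difference between the fasting effects, aged minus young, in one fit of the 4 group means. The Benjamini-Hochberg adjustment covered all probe sets, and genes with an adjusted p up to 0.05 are said to have risen or fallen, without a fold minimum. Percentages of all genes refer to 17097 genes, each at its brightest probe set. On simulated data with all 45141 probe sets, 97 of 100 changes of 1 on the log2 scale were recovered in aged and 97 of 100 in young kidneys, and 65 and 55 of 100 changes of 0.5. For the difference between the ages, 95 and 38 of 100 were recovered. The calls included 12, 25 and 13 unchanged probe sets, in each comparison a larger share of the calls than 0.05. The simulated noise was normal and independent between probe sets, and 100 probe sets were changed by each size. In the real data many more probe sets changed, so these recovery rates need not hold there.

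The members and all lists were chosen with earlier results of these data known, and 1 symbol of a list was updated to that of the annotation. Every member is named. Levels of every mouse are given for the fibrillar collagens, for the 4 basement membrane genes with the smallest p in each age and for every other member that changed at least 1.5-fold past the test. Of each other pathway list up to 3 genes with the smallest adjusted p are named, and 72 of 80 listed pathway genes and 62 of 73 cell type markers were measured. Promoter windows are those of RefSeq (GRCm38.p6). Mice are separate animals with 1 array each.

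Alternatives were a single fit of all arrays, an ordinary linear model without moderation, array weights, a robust fit with a variance trend, quantile normalization, centring on array medians, leaving out the dimmest 40 percent of probe sets, other choices of probe set, a fold minimum of 1.5 and leaving out each array. The settings without young fasted mouse339 and mouse343, without these and mouse340, and without Col1a1 and Col1a2 were added after seeing the data.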

Additional observations from a re-analysis of the deposited data

Results flagged for a closer look

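Among the 72 groups of mice behind the genes with levels given for every mouse, 5 held a mouse far from the others, where chance flags about 1 in 20 groups. The gap to the nearest other mouse, as a share of the range of the group, was 0.906 for Lamb1 in young fasted mouse344 (9.70, against 9.57 to 9.58 in the other 3). It was 0.777 for Nid1 in aged fasted mouse42 (6.66, against 5.95 to 6.11), 0.841 for Sparc in aged fasted mouse39 (7.97, against 8.38 to 8.45), 0.833 for Col6a3 in aged ad libitum fed mouse40 (5.39, against 6.61 to 6.85) and 0.785 for Sparc in the same mouse40 (7.62, against 8.49 to 8.72).

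The fasting effect differed between the ages, aged minus young, by 0.648 for Col5a2 and by 0.672 for Col6a2 on the log2 scale. Both were flagged because the difference itself passed the test.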

How the results depend on the processing

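The number of members that fell in aged kidneys, 3, was 6 with all arrays in one fit, 7 with array weights and 2 to 7 on leaving out 1 array, the highest without aged ad libitum fed mouse40. The number that rose there, 0, was 1 (Lamb1) with all arrays in one fit and 0 to 1 on leaving out 1 array, the highest (Dcn) without aged fasted mouse39. In young kidneys 14 fell, 11 to 15 on leaving out 1 array, 8 with a fold minimum of 1.5 and 9 without young fasted mouse339, mouse340 and mouse343, and 3 rose, of which 1 (Lox) reached that minimum. The 2 differences between the ages became 0 without moderation, 1 (Col6a2) with quantile normalization, 6 with the mean of the probe sets of a gene, 0 without young fasted mouse339 and mouse343 (with or without mouse340), and 0 to 4 on leaving out 1 array. The median of the fibrillar collagens minus that of the basement membrane genes was -0.29 in aged kidneys, -0.35 to -0.17 on leaving out 1 array and -0.10 with the mean of the probe sets of a gene. In young kidneys it was -0.31, and became -0.44 without young fasted mouse339 and mouse343, -0.58 without mouse340 as well, -0.78 without Col1a1 and Col1a2 and -0.38 to -0.25 on leaving out 1 array. The causes were not tested. The paper matched mice in pairs by body weight and sex before diets were assigned, and does not say whether this covered the array mice. The labels name no pairs, so no paired analysis was possible.

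For the 22 single genes and comparisons that passed the test, 476 values were recomputed, of which 392 kept the call, 82 lost it and 2 changed sign, both without young fasted mouse339, mouse340 and mouse343 (Col4a2 with 0.00398 and Bgn with 0.00556). Under the alternatives run, the calls of Col3a1 and Col14a1 in both ages and those of Col5a2, Col6a2, Col6a3, Fn1, Sparc and Lox in young kidneys were not lost. Beside these 2 changes of sign, Col4a2 lost its young call in 12 of 21 alternatives, Bgn in 11 and Col4a3 in 9, Mmp2 its aged call in 10 of 20, and Col5a2 and Col6a2 their differences in 17 and 12 of 30. Col15a1 lost its young call only without mouse339, mouse340 and mouse343. Probe sets that were dim over all arrays limit what can be said of 4 members, Col1a1, Col1a2, Col12a1 and Vcan. Col1a1 was not tested where the lowest 40 percent were left out. In aged arrays Mmp2, Lox, Tnc, Postn, Eln and Col15a1 also lay close to the array medians.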
